A study of Rattus norvegicus with 24 samples.

Results

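The sarcoplasmic reticulum calcium pump Atp2a2 (ENSRNOG00000001285, SERCA2) and the calcium release channel Ryr2 (ENSRNOG00000017060) were followed in the hearts of rats of strain WI. They are 2 of the 32883 genes in the deposited tables and were chosen as the pump and the channel of the same calcium store. The symbols were taken as given for these Ensembl numbers, because the 47357 genes of the reference used here carry no Ensembl numbers. It lists both symbols.

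RNA was sequenced from the left ventricle with septum and from the right ventricular free wall of animals labelled CTL, read here as control, and DAAO. DAAO usually stands for D-amino acid oxidase, which produces hydrogen peroxide as it breaks down D-amino acids, and the title names chemogenetic heart failure as the subject. There were 4 groups of 6 libraries, 24 in all (CTL left, DAAO left, CTL right, DAAO right), and each of 12 animal numbers occurs once per ventricle. The labels give no age, sex, dose, duration, vector or promoter, and do not say what the CTL animals received or whether the numbers are separate rats, so p-values measure the spread between these samples. Every DAAO number is higher than every CTL number, so group and number order (a cohort, for example) cannot be told apart.

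In a heart muscle cell each beat begins when calcium entering through the surface membrane opens Ryr2 channels, which let calcium out of the sarcoplasmic reticulum. The contractile proteins then shorten, and the Atp2a2 pump, which spends ATP, returns calcium to the store so that the muscle relaxes. Reduced pump activity and leaky release channels are well known in failing hearts. Ventricular tissue holds other cell types too, and in such bulk samples fewer cells of a type and less RNA per cell cannot be told apart.

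The 250 bases before the start of each gene are shown because both genes fell in the left ventricle. The sequences are from RefSeq on GRCr8, at chr12:39733269-39733518 for Atp2a2 and chr17:63081277-63081526 for Ryr2, both on the plus strand, and capitals mark the GC box letters GGGCGG on either strand.
Atp2a2: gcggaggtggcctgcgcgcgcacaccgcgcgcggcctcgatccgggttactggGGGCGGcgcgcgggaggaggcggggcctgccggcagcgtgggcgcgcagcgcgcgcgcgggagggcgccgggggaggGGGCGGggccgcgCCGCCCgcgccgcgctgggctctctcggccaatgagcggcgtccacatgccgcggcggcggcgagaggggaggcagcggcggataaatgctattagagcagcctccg
Ryr2: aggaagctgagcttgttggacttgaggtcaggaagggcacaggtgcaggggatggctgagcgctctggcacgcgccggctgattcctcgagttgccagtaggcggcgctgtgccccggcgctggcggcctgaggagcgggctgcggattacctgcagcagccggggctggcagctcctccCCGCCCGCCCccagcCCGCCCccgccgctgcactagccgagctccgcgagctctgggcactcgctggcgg
Each window held 3 GC box matches, 2 of them overlapping in Ryr2, and 30.5% of 33469 rat promoters of this length held at least 1. The share with 3 or more was not counted. The Atp2a2 matches began 197, 120 and 107 bases before the gene start and those of Ryr2 70, 66 and 55 bases before it. Atp2a2 also had a CCAAT match 79 bases before the start, a motif in 34% of promoters and not matched in the Ryr2 window. Each had 1 CANNTG match, as 65.5% of promoters had at least 1, and neither matched TATAAA (12.9% of promoters), the CArG box (1.5%) or the MEF2 motif (2.96%). All 6 motifs were searched on both strands, and of the motifs matched in these windows only the GC boxes within Ryr2 overlapped. Both windows were rich in G and C, 80% in Atp2a2 and 72% in Ryr2 against a median of 51.2%, with 45 and 23 CpG pairs against a median of 5. The G and C share was at or below that of Atp2a2 in 99% of promoters and at or below that of Ryr2 in 94.3%. These matches are letters in a window and do not show that a factor binds there.

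The libraries held 13280705 to 23263897 reads, recovered from the deposited values. Atp2a2 was covered by 61290 to 221704 reads per library and Ryr2 by 4486 to 36705, so the counting error, taken as the square root of the reads, was at most 0.404% and 1.49% of a value, far below the spread between libraries. Reads are not independent molecules, and the error covers counting only. Atp2a2 ranked 14th of 14041 tested genes in the left ventricle and 15th of 13489 in the right by mean normalized count, and Ryr2 50th and 94th. These ranks are not per length, and Ryr2 has a much longer transcript. The 10 most abundant genes took 21.5% to 30.2% of reads in CTL left, 18.4% to 24.5% in DAAO left, 24.5% to 32.5% in CTL right and 20.9% to 26.5% in DAAO right libraries. Genes with at least 1 read numbered 17511 to 19150 in CTL left, 18088 to 18871 in DAAO left, 15679 to 16823 in CTL right and 16479 to 17828 in DAAO right libraries. The part of these library measures in the results was not tested.

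Both genes fell in the left ventricle of DAAO animals. Atp2a2, which refills the calcium store, stood at 0.447 times its CTL level, and Ryr2, which lets calcium out of the store at each beat, at 0.685 times. In the right ventricle Atp2a2 fell as well, whereas Ryr2 did not pass the test and its estimate was positive.

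Atp2a2 had normalized counts of 149080 at the lowest, 195637 at the median and 220987 at the highest in the CTL left ventricle. In DAAO left ventricles the lowest was 65667, the median 81612 and the highest 101930. All 6 DAAO libraries lay below all 6 CTL libraries, as was the case for 8.28% of tested genes. CTL averaged 186748 ± 28243 and DAAO 83423 ± 12657 (SD, n = 6 each). The log2 fold change of -1.16 had an SE of 0.16 and a limma adjusted p of 0.000138, and the 95% interval of the fold ran from 0.353 to 0.566 times the CTL level. Of 14041 genes tested in the left ventricle, 20% were called lower, and 2.41% had a log2 fold change at or below that of Atp2a2.

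Ryr2 had normalized counts of 25080, 29112 and 33010 (lowest, median, highest) in the CTL left ventricle. The DAAO values were 15896, 19589 and 25103. Of the DAAO libraries 5 lay below every CTL library, and the sixth, D_7142 at 25103, stood just above the lowest CTL value of 25080. The mean fell from 29094 ± 3118 to 20197 ± 4157 (SD, n = 6 each). This log2 fold change of -0.55 had an SE of 0.13 and a limma adjusted p of 0.00664, with a 95% interval from 0.561 to 0.838 times the CTL level. At or below this log2 fold change stood 11.6% of tested genes, so Ryr2 lies nearer the middle of the genes than Atp2a2 does.

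**Figure D1:**
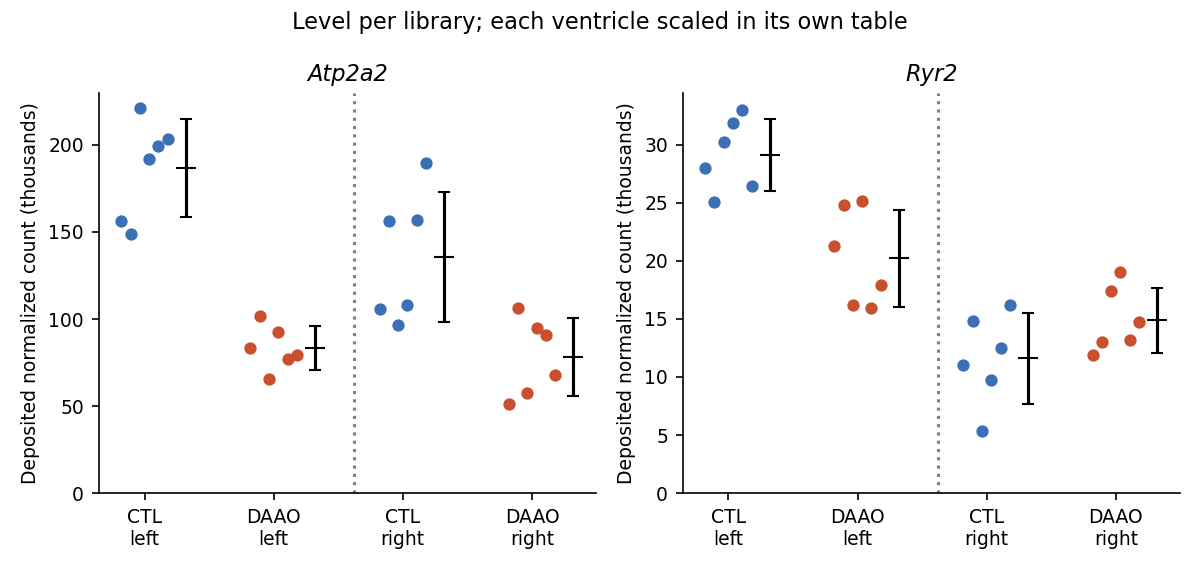
Normalized counts (in units of 1000, from 0) of Atp2a2 and Ryr2 in each library as points, with mean and SD of 6 libraries as bars, CTL in blue and DAAO in orange. Left of the dotted line are left and right of it right ventricular libraries, which were scaled in separate tables. For Atp2a2 every left DAAO point is below every left CTL point, and for Ryr2 the right DAAO points overlap the upper CTL points.

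Within the CTL group, animals C_7000 and C_7005 had the lowest left ventricular Atp2a2 values, 156035 and 149080, against 191891 to 220987 in the other 4. Their numbers lie apart from the rest of the group. Without these 2 animals the left log2 fold changes were -1.30 for Atp2a2 (limma adjusted p = 6.43e-05) and -0.61 for Ryr2 (limma adjusted p = 0.00573). In the right ventricle C_7005 stood at 156276 and C_7000 at 105964 for Atp2a2, between the lowest and highest CTL values.

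In the right ventricle the Atp2a2 counts were 96553, 132187 and 189675 (lowest, median, highest) in CTL. In DAAO they were 50985, 79310 and 106316. Of the DAAO libraries 5 lay below every CTL library, and D_7137, at 106316, lay within the CTL range. The mean fell from 135534 ± 37292 to 78013 ± 22344 (SD, n = 6 each). On the log2 scale this was -0.80 (SE 0.25, adjusted p = 0.0274 in limma), or 0.573 times the CTL level with a 95% interval from 0.398 to 0.825. Of 13489 right ventricular genes tested, 26.5% were called and 14% were called lower. The call sits close to the threshold: it was lost when C_7121, C_7123, D_7135, D_7138 or D_7146 was left out (limma adjusted p from 0.0585 to 0.0642) and when genes with low values were kept in (limma adjusted p = 0.137). Its direction held in each of these, and edgeR (adjusted p = 0.0188) and DESeq2 (adjusted p = 0.00156) kept the call.

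Ryr2 in the right ventricle ran from 5310 over a median of 11772 to 16225 in CTL. In DAAO it ran from 11892 over 13988 to 19070. The groups overlapped, with 2 DAAO libraries above every CTL library and 3 CTL libraries below every DAAO library, although all 6 DAAO values exceeded the CTL median. CTL averaged 11605 ± 3890 and DAAO 14890 ± 2805 (SD, n = 6 each). On the log2 scale DAAO was 0.42 above CTL (SE 0.23, adjusted p = 0.187 in limma), and the 95% interval reached from 0.951 to 1.89 times the CTL level. The lowest CTL value, 5310 in C_7118, carried part of the estimate, which was 0.22 without that animal (limma adjusted p = 0.367). The same library had the highest share of reads in the 10 most abundant genes among right ventricular libraries, 32.5%.

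When every library was scaled to the same total, the median gene shifted to a log2 fold change of 0.21 in the left and 0.27 in the right ventricle. On that scale right ventricular Ryr2 was called higher (log2 fold change 0.67, limma adjusted p = 0.0389), as were 3802 of 13489 genes there, against 1684 with the deposited scaling. The left ventricular fall of Ryr2 was smaller (-0.34, limma adjusted p = 0.00736). Such a rescaling shifts all genes of a library alike, so values relative to the median gene could hardly move and are no check. On that measure Atp2a2 stood at -1.17 in the left and -0.82 in the right ventricle, and Ryr2 at -0.56 and 0.40.

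A fit over all 24 libraries asked whether the DAAO effect was unequal in the ventricles. For Ryr2 the left effect was 0.97 lower on the log2 scale than the right (difference -0.97, SE 0.28, 95% interval -1.55 to -0.39), at an unadjusted limma p of 0.00205 and an adjusted p of 0.0587, just outside the threshold. With the animal number as a block the same difference passed (limma adjusted p = 0.0340). Its unadjusted limma p was then 0.00184, close to that without the block, while the genes called numbered 1072 against 391. In the unblocked fit 2.93% of 13344 genes were called, and 2.1% had a difference at or below that of Ryr2. The difference was -0.75 without C_7118 (limma adjusted p = 0.0992). For Atp2a2 the difference was -0.36 (SE 0.28, limma adjusted p = 0.558), and its 95% interval from -0.94 to 0.23 includes both equal effects and a clearly stronger fall in the left ventricle. Without C_7118 it was -0.22 (limma adjusted p = 0.824).

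**Figure D2:**
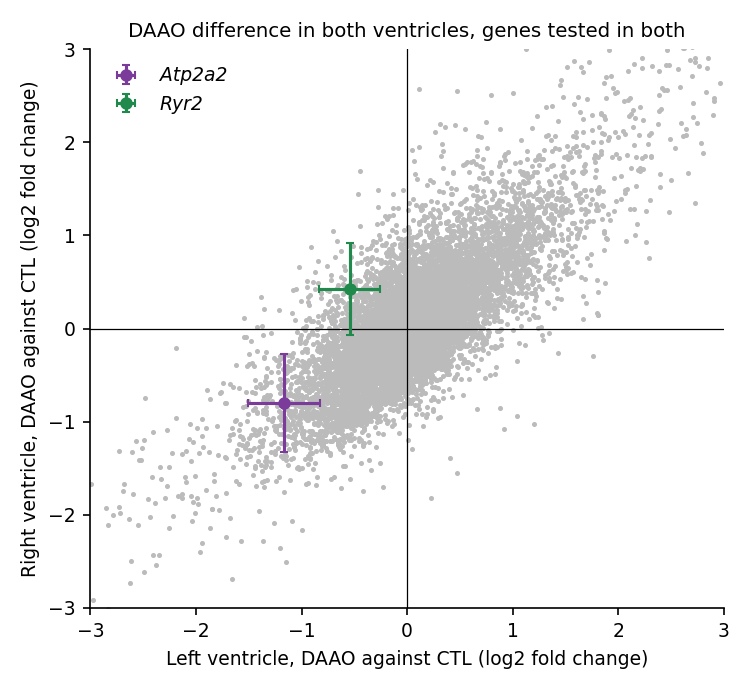
Log2 fold changes of DAAO against CTL in the left (x) and right (y) ventricle for the genes tested in both, in grey, with Atp2a2 and Ryr2 and their 95% limma intervals in colour. Axes end at 3 and leave 101 of 13344 genes outside. Atp2a2 lies at -1.16 and -0.80, and Ryr2 at -0.55 and 0.42, to the left of and above the zero lines, with an interval that crosses 0 on the right ventricular axis.

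Levels in the ventricles were set side by side after all 24 libraries were scaled together from the recovered reads, since the deposited tables were normalized separately. The series text says that the ventricles were studied separately, with separate raw data, so the chamber and any difference in handling cannot be told apart. These comparisons use the same libraries as those above and are not independent of them.

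In CTL animals the RNA of the release channel was more abundant on the left. On the common scale Ryr2 stood at 22493, 26398 and 29652 (lowest, median, highest) in the left ventricle. In the right ventricle it stood at 5892, 13002 and 17978. All 6 left libraries lay above all 6 right libraries, as for 11.5% of tested genes. The left library was therefore the higher in 6 of 6 animals however they are paired. By shared number it was higher by 1.33 to 4.65 times, with C_7118 the highest. The mean log2 difference was 1.11 (SE 0.20, limma adjusted p = 7.14e-05), or 2.16-fold with a 95% interval from 1.63 to 2.86. Of 13344 genes 22.2% were called higher in the left ventricle of CTL animals. Without C_7118 the log2 difference was 0.89 (limma adjusted p = 2e-04).

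In DAAO animals this chamber difference did not pass the test. Ryr2 stood at 14253, 17644 and 22677 (lowest, median, highest) in the left ventricle. In the right ventricle it stood at 13226, 15459 and 20732. The left library was the higher in 3 of 6 animals, with left to right ratios from 0.760 to 1.57. The log2 difference was 0.14 (SE 0.20, limma adjusted p = 0.649), with a 95% interval from 0.833 to 1.46-fold, whereas 27.1% of genes were called in either direction. The change of the left to right difference between CTL and DAAO is the same quantity as the difference of effects given above, at -0.97.

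Atp2a2 did not differ between the chambers past the threshold in either group. In CTL its common-scale means were 168580 ± 25709 on the left and 149859 ± 41285 on the right (SD, n = 6 each), a log2 difference of 0.20 (SE 0.20, limma adjusted p = 0.444, 95% interval 0.863 to 1.53-fold), where 43.9% of genes were called. The left library was the higher in 4 of 6 CTL animals. This log2 difference was 0.06 without C_7118 and 0.31 without C_7005, uncalled in each case. In DAAO the means were 75242 ± 11546 and 85992 ± 24322 (SD, n = 6 each), a log2 difference of -0.16 (SE 0.20, limma adjusted p = 0.621, 95% interval 0.674 to 1.19-fold), with the left the higher in 1 of 6 animals. Leaving out 1 animal gave -0.27 (without D_7135) to -0.08 (without D_7143) here, and 0.04 (without D_7137) to 0.25 (without D_7138) for Ryr2 in DAAO, all uncalled.

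**Figure D3:**
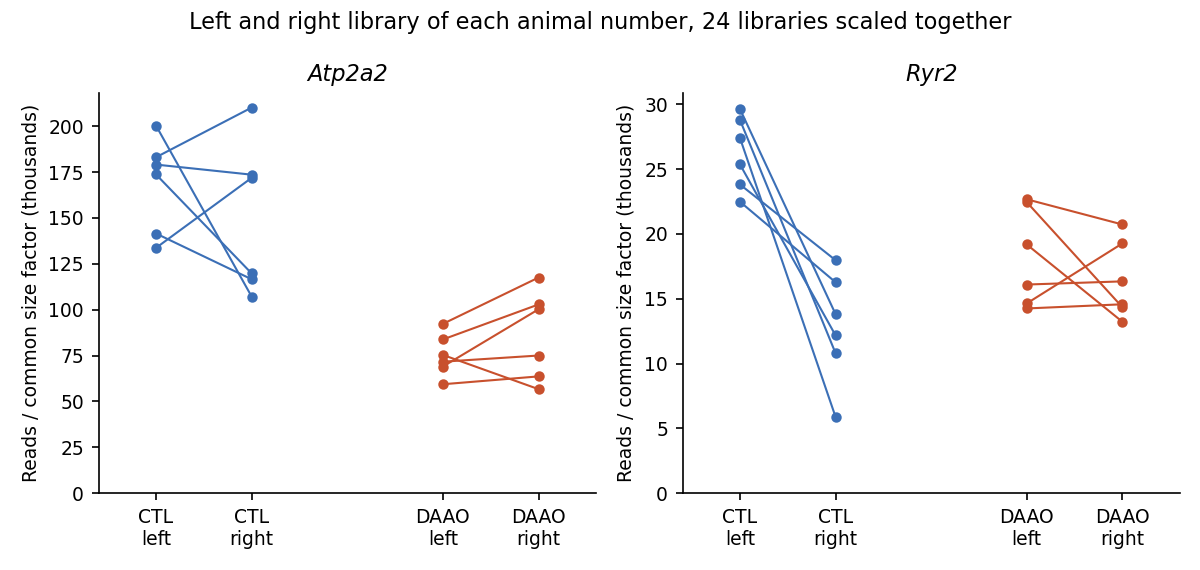
Levels of Atp2a2 and Ryr2 (reads divided by size factors computed over 24 libraries, in units of 1000, from 0), with a line joining the left and right library of each animal number, CTL in blue and DAAO in orange. All 6 CTL lines of Ryr2 go down from left to right, from a median of 26398 to 13002, while DAAO lines run in both directions.

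Ordered by mean on the common scale, Atp2a2 was highest in CTL left, then CTL right, DAAO right and DAAO left. The neighbours CTL left and CTL right, and DAAO right and DAAO left, did not differ past the threshold, and the step between CTL right and DAAO right is the right ventricular fall. Ryr2 was highest in CTL left at 26263 ± 2838, followed by DAAO left at 18219 ± 3790, DAAO right at 16416 ± 2988 and CTL right at 12827 ± 4290 (SD, n = 6 each). Only the first step of this order, the left ventricular fall, passed the test between neighbours.

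**Figure D4:**
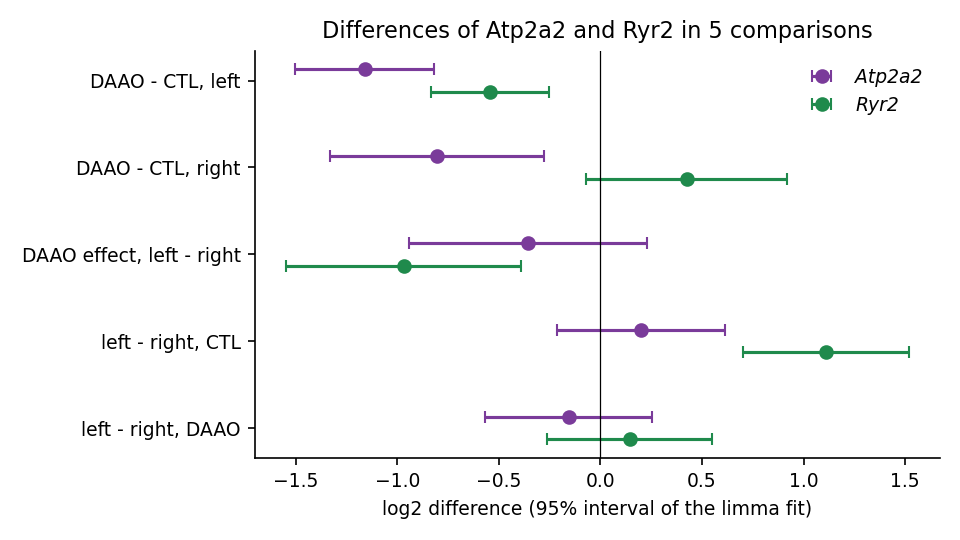
Log2 differences of Atp2a2 and Ryr2 with 95% intervals of the limma fits in the 5 comparisons, DAAO minus CTL in each ventricle, the difference of these effects, and left minus right in each group. The Atp2a2 intervals of both DAAO comparisons lie below 0, and the Ryr2 interval of left minus right lies above 0 in CTL and spans 0 in DAAO. Intervals are not adjusted for the number of genes.

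The proportion of release channel to pump transcripts was read within each library, where the size factor cancels, so that it can be set across the tables. It is a ratio of reads and not of molecules, since reads are not per length. In the CTL left ventricle there were 13 to 17.9 Ryr2 reads per 100 Atp2a2 reads, with a median of 16.6. In the DAAO left ventricle there were 20.7 to 27.1, with a median of 24.5. In the CTL right ventricle there were 5.50 to 10.4, with a median of 8.79. In the DAAO right ventricle there were 12.2 to 30.3, with a median of 21.0.

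Every DAAO library thus had a higher proportion of Ryr2 than every CTL library of its ventricle. How many other pairs of genes separate the groups in this way was not examined. The ratio was 1.53 times higher in DAAO on the left (log2 difference 0.62) and 2.34 times higher on the right (log2 difference 1.23). These are the log2 fold changes of Ryr2 less those of Atp2a2 given above, so they add no independent evidence. Each difference had a two-sided exact permutation p of 0.00216, the smallest that 6 libraries against 6 can give, and a Benjamini-Hochberg adjusted p of 0.00289 over 4 ratio tests. The rise of the proportion on the left came with falls of both genes, the larger in Atp2a2, and on the right with a fall of Atp2a2 alone among the calls. Between the chambers the ratio was 1.88 times higher on the left in CTL (exact permutation p = 0.00216, adjusted 0.00289). In DAAO it was 1.23 times higher on the left, a difference that did not pass (exact permutation p = 0.199). Sign flips within the 6 CTL animals, the paired form of the test, gave an exact permutation p of 0.0312, the smallest they can give. Every CTL left ratio lay above every CTL right ratio, so any pairing would give this p, and it adds no support.

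**Figure D5:**
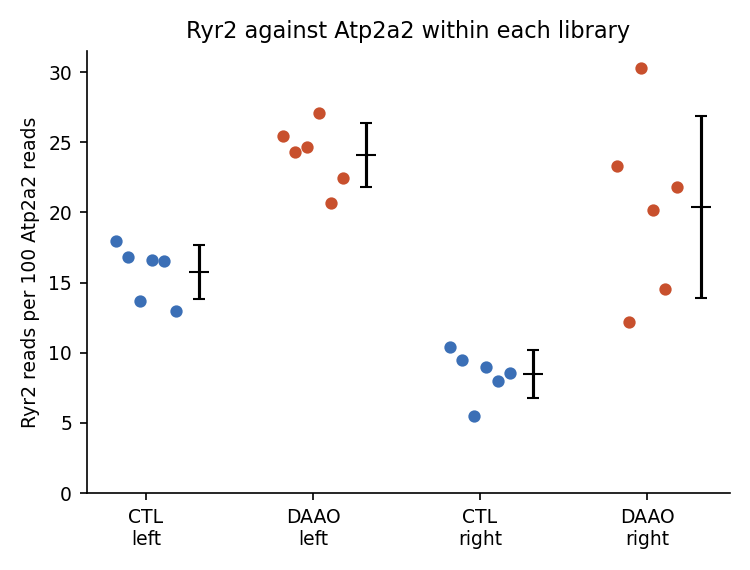
Ryr2 reads per 100 Atp2a2 reads in each library as points, with mean and SD of 6 libraries as bars, CTL in blue and DAAO in orange, from 0. CTL points reach at most 17.9 on the left and 10.4 on the right, and DAAO points begin at 20.7 and 12.2. The right DAAO libraries are the most spread, with D_7137 lowest and D_7138 highest.

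Within groups the genes varied together in 2 of 4 cases by Pearson's r of log2 values over 6 libraries. In DAAO left r was 0.90 (exact permutation p = 0.0111, adjusted 0.0444 over the 4 groups; Spearman's rho 0.89, exact permutation p = 0.0333, adjusted 0.0667). In CTL right r was 0.84 (exact permutation p = 0.0222, adjusted 0.0444), with the same rho. Leaving out the 2 libraries farthest from the median of Atp2a2 gave 0.98 and 0.86 over 4 libraries. In CTL left r was 0.58 (exact permutation p = 0.243, rho 0.37, exact permutation p = 0.497) and turned to -0.26 without the 2 farthest libraries. In DAAO right r was 0.12 (exact permutation p = 0.797, rho 0.20, exact permutation p = 0.714) and -0.09 without them. No rho passed after adjustment, and the genes of a library share its size factor and composition.

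The DAAO right group is where the proportion of the genes varied most between animals. D_7138 combined a low Atp2a2 (57545) with the second highest Ryr2 of the group (17425), and D_7137 the highest Atp2a2 (106316) with the second lowest Ryr2 (12981). The coefficient of variation of Atp2a2 was 15.1% in CTL left, 15.2% in DAAO left, 27.5% in CTL right and 28.6% in DAAO right. For Ryr2 it was 10.7%, 20.6%, 33.5% and 18.8% in the same order.

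Genes with a similar pattern were sought by the correlation of deviations from the group mean over 24 libraries, a measure that leaves out the differences between groups. The gene most like Atp2a2 among 13343 was ENSRNOG00000017820 (r = 0.97), with log2 fold changes of -0.89 in the left (limma adjusted p = 4.67e-05) and -0.78 in the right ventricle (limma adjusted p = 0.00508). The gene most like Ryr2 was ENSRNOG00000015658 (r = 0.97), which fell in the left (log2 fold change -0.44, limma adjusted p = 0.0189) and rose in the right ventricle (0.82, limma adjusted p = 0.0234). The genes ranked 2 to 5 for Atp2a2 were called lower in the left ventricle, as were 20% of all tested genes. In the right ventricle they were uncalled (limma adjusted p from 0.124 to 0.606). Of those ranked 2 to 5 for Ryr2, only rank 3 was called lower on the left. All but rank 4 were called higher on the right, as were 1684 of 13489 tested genes, and rank 3 only narrowly (limma adjusted p = 0.0498). Atp2a2 and Ryr2 themselves had r = 0.60. More like Ryr2 than Atp2a2 was were 837 genes, and 1764 were more like Atp2a2 than Ryr2 was. These correlations are descriptions over libraries that share scaling and composition. Other genes of calcium handling and markers of cell types were not analysed here, because symbols could not be paired with the Ensembl numbers.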

How the data were processed

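RNA was measured in 24 heart libraries. Per the labels' protocols, Trizol was used on snap-frozen hearts, and Novogene made and sequenced the libraries. The submitters' processing notes name STAR 2.7.0a, FastQC, DESeq2 1.26.0 and Rnor_6.0. With the counter, annotation and strand setting not given in the sources used here, reads of overlapping or antisense genes could be included.

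The authors deposited a normalized signal, in which each library's gene counts are divided by its size factor, in 1 table per ventricle. Every value above 0 (100%, tolerance 1e-06) was a whole multiple of the smallest in its library, which gave the reads. The main test was limma 3.58.1 (R 4.3.3), with its mean-variance trend, on log2 of the deposited value plus a pseudocount of 1, two-sided, Benjamini-Hochberg adjusted over all tested genes, threshold 0.05, for genes with a mean of at least 10. The ventricles were compared in a fit over all 24 libraries, for levels after median-of-ratios scaling of the reads over all 24. Ratios were tested by exact permutation in Python (SciPy 1.17.1).

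Count tests on the recovered reads (quasi-likelihood in edgeR 4.0.16, and DESeq2 1.42.0) were alternatives. edgeR called 5230 genes in the left and 3497 in the right ventricle. Other alternatives were pseudocounts, filters, scalings, robust and weighted fits, omitted animals and an animal block. The animal was read from the number shared by a left and a right library. Deviations from the group mean of such libraries correlated with a median r of 0.55 (0.06 to 0.79), above 0.1 in 10 of 12 pairs, and in 9 of 12 the own number correlated best. The exceptions were all CTL: C_7118 (r = 0.06), C_7120 (0.06) and C_7123 (0.25). The pairing is therefore less well borne out in CTL than in DAAO. Chi-square tests of the reads of the 60 library pairs within groups gave at least 12.5 per degree of freedom, so none was counted as a repeat. The fits were also run on simulated counts with known changes in the left ventricle only. Those libraries were drawn independently, with no animal pairing and the same dispersion for every gene. The simulation therefore checks the code and not how the fits behave in these data.

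Both genes passed the filter in both tables. The genes, lists and tests were chosen with earlier results of these data known. The rule for named genes took these 2 and, for each, the gene with the highest correlation of deviations. Fixed lists of calcium handling genes and cell type markers were not run, since the reference pairs no Ensembl number with a symbol, and the labelled tissue was not checked against markers. The test of the ratio's change between ventricles was added after the values were seen.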

Additional observations from a re-analysis of the deposited data

Results flagged for a closer look

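The effect of DAAO on the proportion of Ryr2 to Atp2a2 reads differed between the ventricles in an unadjusted test. The left minus right log2 ratio was 0.91 on average in CTL and 0.30 in DAAO animals, so the effect was -0.61 on the left relative to the right (two-sided exact permutation p = 0.0195, over reassignments of the animals). The proportion rose in DAAO in both ventricles, more on the right. The test was chosen after the values were seen and was not repeated with animals left out. It takes libraries of the same number as the same animal, although the own number did not correlate best for C_7118, C_7120 and C_7123. The -0.61 is the Ryr2 difference of effects less that of Atp2a2. Neither passed in the main fit (limma adjusted p = 0.0587 for Ryr2 and 0.558 for Atp2a2). Leaving out 1 animal put the CTL average at 0.83 (without C_7118) to 0.97 (without C_7123). The DAAO average was then 0.16 (without D_7137) to 0.42 (without D_7138). Among 12 groups of 6 values examined for a library far from the rest, 0 were marked.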

How the results depend on the processing

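In the left ventricle Atp2a2 and Ryr2 kept their direction and their call under all 11 alternatives run and with each of 12 animals left out. The pseudocounts, filters and robust fit could hardly move the estimates of genes this abundant, so they bear on the call only. Leaving out 1 animal gave log2 fold changes from -1.22 to -1.10 for Atp2a2 and from -0.61 to -0.48 for Ryr2; the alternatives reached from -1.30 (without C_7000 and C_7005) to -0.96 (equal totals) for Atp2a2 and from -0.61 to -0.34 in the same order for Ryr2. In the right ventricle the Atp2a2 call was lost without a filter on low values (log2 fold change -0.80, limma adjusted p = 0.137) and for 5 of 12 animals left out (-0.77 to -0.69 in these, -0.90 to -0.69 over all 12). Right ventricular Ryr2 was called higher with equal library totals (0.67), and stayed uncalled, at 0.22 to 0.54, with any animal left out. The left minus right effect of Ryr2 passed with the filter raised to a mean of 100 (-0.97, limma adjusted p = 0.0474), with equal totals (-1.01), DESeq2 (-0.88), sample weights (-0.99) and the replicate block (-0.97), and not in the other 8 alternatives; with 1 animal left out it was -1.11 to -0.75 and passed for 3 of 12 (C_7005, C_7123 and D_7137). The number of genes called there was 391, and 198 without a filter, 744 with DESeq2, 1101 with sample weights, 1072 with the replicate block, 236 without C_7000 and C_7005 together, and 84 to 616 with 1 animal left out. The cause was not tested. The block changed no other call of either gene. Equal totals moved the called split from 2430 higher and 2805 lower to 4325 and 1631 on the left, from 1684 and 1890 to 3802 and 933 on the right, from 209 and 182 to 121 and 265 for the difference of effects, from 2968 and 2892 to 3900 and 1817 between the chambers in CTL and from 1853 and 1769 to 2354 and 1025 in DAAO. Chamber comparisons and ratio tests kept direction and side of the threshold under each alternative run. With at least 4486 reads of either gene in each library, the counting error was at most 1.49% of a value.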
